A study of Homo sapiens with 2 samples.

Results

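The heat shock protein (HSP) and J-domain (DNAJ) chaperone genes were examined in the triple-negative human breast cancer line MDA-MB-231, in 1 library from cells with a vector control and 1 library from cells over-expressing YWHAB. YWHAB encodes the 14-3-3 beta adaptor protein. Members were the protein-coding genes whose GENCODE 29 symbol begins with HSPA, HSPB, HSPH, HSPD or HSPE and a digit, with HSP90A, or with DNAJA, DNAJB or DNAJC and a digit, together with HSF1 and HSF2. The rule leaves out 5 chaperones of the endoplasmic reticulum that match the patterns (HSPA5, DNAJB9, DNAJB11, DNAJC3 and DNAJC10). It gave 72 genes of the 60774 gene identifiers, with 71 distinct symbols, because 2 identifiers carry the symbol HSPA14. The rule uses names and place in the cell and no measured value, but it was set with earlier results of these data known. Of the measured members, 8 (HSPA13, DNAJB12, DNAJB14, DNAJC1, DNAJC14, DNAJC16, DNAJC18 and DNAJC25) are known from the endoplasmic reticulum, so the set is not purely cytosolic and mitochondrial.

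Both libraries were labelled as total RNA of the same line, and the labels give no vector name, clone, passage or time after transduction. The protocol fields also carry text about fat cell induction and about retinas. Whether any of it applies to these cells was not tested. The libraries held 12375999 fragments (vector) and 13810668 fragments (YWHAB). YWHAB itself was at 239 FPKM with the vector and 336 FPKM with YWHAB, a ratio of 1.41 (95% interval 1.36 to 1.45). FPKM are fragments scaled to gene length and to library size, and where a pair of values is given the vector library comes first. The mesenchymal markers VIM, CD44 and AXL stood between 453 and 998 FPKM in both libraries, with ratios of 1.17, 1.43 and 1.47, so those of CD44 and AXL were as large as that of YWHAB. The luminal and epithelial markers ESR1, PGR, CDH1 and EPCAM summed to 1.58 and 1.56 FPKM. Of 10 retina markers 0 were measured. Of 8 adipocyte markers 2 were measured, ADIPOR2 and LPL, with ADIPOQ and LEP at 0 in both libraries, and of 6 leukocyte markers 1 (CD14).

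Chaperones bind unfolded stretches of other proteins and let them fold, and most work in cycles of ATP binding and hydrolysis. HSP70 proteins are loaded with clients by J-domain proteins and emptied by nucleotide exchange factors such as the HSP110 proteins. HSP90 takes over partly folded clients, many of them kinases and hormone receptors, and the chaperonin HSPD1 with its lid HSPE1 folds proteins inside mitochondria. Small heat shock proteins hold unfolded proteins without ATP, and the transcription factor HSF1 switches on many of these genes when unfolded proteins accumulate. Cancer cells often carry high levels of them.

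A gene was called measured when its FPKM averaged 1 or more across the libraries, and 53 of the 72 members were. Differences are of log2(FPKM + 1), YWHAB minus vector, which understates those of low genes. Genes whose difference reached 1 or -1 were called 2-fold higher or lower. Of the 53 measured members 0 were 2-fold higher and 1 was 2-fold lower (HSPB8). Among all 13420 genes compared, 0.686% were 2-fold higher and 1.97% were 2-fold lower, and among protein-coding genes alone 0.295% and 1.45%. The median difference of the members was -0.01 and that of all genes was 0.03. The median absolute difference was 0.21 for the members and 0.23 for all genes. By these values the measured members as a whole lay where genes in general lay, and 45 of them differed by less than 0.5. This holds for the genes the rule kept. The 5 matching genes that it leaves out were all lower. Their differences were -1.66 (HSPA5), -1.07 (DNAJB9), -0.74 (DNAJB11), -0.60 (DNAJC3) and -0.36 (DNAJC10). With 1 library per group no difference has a replicate check, no test was run, and condition, culture and library preparation cannot be told apart. Nor can fewer cells carrying a message and less of it per cell.

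Counting error was the only error available. The number of fragments behind each value could be worked out from the FPKM steps, and each ratio of the libraries is given with its exact 95% counting interval (Clopper-Pearson). PCR copies are not independent molecules, and intervals cover counting error only. The interval lay above equal levels for 16 measured members, where 27.8% of all genes compared did so. It lay below equal levels for 17, against 21.8% of all genes. For protein-coding genes alone these shares were 30.7% and 23.2%. The interval covered equal levels for the remaining 20. Under all 4 scalings used (as deposited, equal totals, median ratio set to 0, and a correction for length and GC content), 11 members stayed above and 12 stayed below, against 22.3% and 17.6% of all genes and 24.5% and 18.8% of protein-coding genes. The 10 members with at least 100 FPKM had 6 intervals above equal levels and 2 below. Of all genes at that level, 44.2% had intervals above and 36.0% below. The 43 members under 100 FPKM had 10 intervals above (23.3%) and 15 below (34.9%). Of all genes under 100 FPKM, 26.1% had intervals above and 20.3% below.

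**Figure D1:**
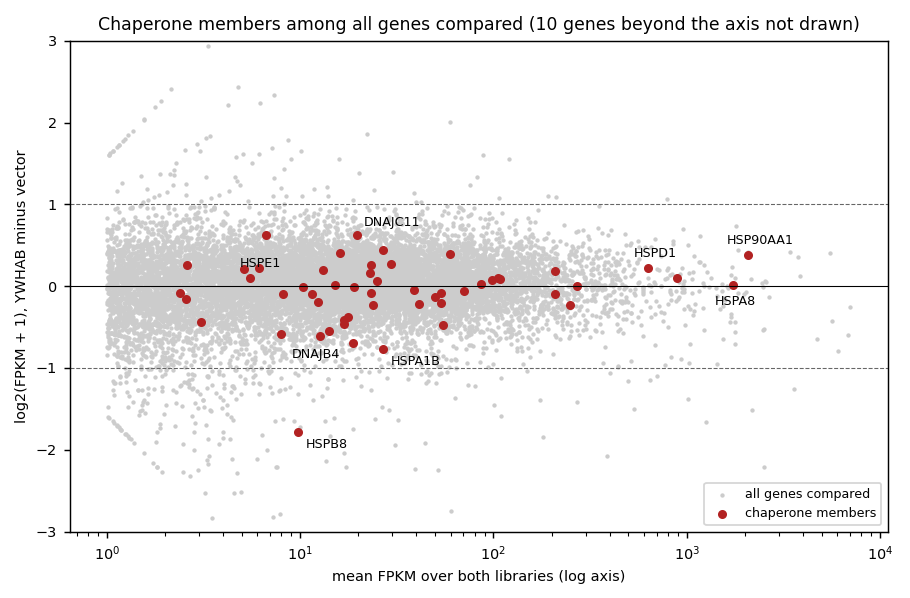
Each point is a gene, with the mean FPKM of both libraries on a log x axis and the difference in log2(FPKM + 1), YWHAB minus vector, on the y axis. Grey points are the genes compared, 10 of which lie beyond the axis, red points are the 53 measured members, and dashed lines mark differences of 1 and -1. HSPB8 is the member past a dashed line, at -1.78, and HSP90AA1 lies at the far right at 0.38.

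Set against the 500 genes nearest to it in mean FPKM, HSPB8 had a difference that 0.2% of them reached or went below. The corresponding share was 1.8% for HSPA1B and 2.4% for DNAJB4. At the other end, 4.6% of the 500 neighbours of DNAJC11 had a difference at least as high. Those 4 members lay in the outer 5% of their neighbours on either side, out of 53 measured, with 3 in the lowest and 1 in the highest. By construction about 5% of genes lie in each outer 5%, so some members of any set of this size would lie there.

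Binding sites of HSF1, called heat shock elements, are built from inverted repeats of the unit GAA. To show which members carry such letters close to their start, RefSeq promoter windows of GRCh38.p14 (250 bases before to 50 after each start) were searched on both strands for 3 units in a row, that is GAA, any 2 bases, TTC, any 2 bases, GAA, or the reverse complement of this. Only exact units were counted, and runs with an altered unit were not searched for. Windows were found by symbol for 61 members. The element was present at 7 of these 61 genes (11.5%), and at 166 of the 27305 genes with a window (0.608%). By window, the shares were 8.64% of 81 and 0.490% of 35116. The 7 were HSP90AA1, HSP90AB1, HSPA8, HSPD1, HSPA6, DNAJB6 and DNAJA1. The 6 with an element before the start are shown 5′ to 3′ on the strand of the gene, with the element in capitals.
HSP90AA1: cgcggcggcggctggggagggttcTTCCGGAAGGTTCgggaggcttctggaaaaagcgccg
HSP90AB1: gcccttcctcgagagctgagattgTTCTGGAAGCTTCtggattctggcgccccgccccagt
HSPA8: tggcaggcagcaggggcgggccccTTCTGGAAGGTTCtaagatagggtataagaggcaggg
HSPA6: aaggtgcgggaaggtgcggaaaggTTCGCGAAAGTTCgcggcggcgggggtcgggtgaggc
HSPD1: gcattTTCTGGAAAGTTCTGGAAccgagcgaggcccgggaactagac
DNAJB6: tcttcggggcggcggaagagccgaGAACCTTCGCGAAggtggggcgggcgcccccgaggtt
In the order shown, these stretches lie at chr14:102087096-102087156 (minus strand), chr6:44247807-44247867 (plus), chr11:123062155-123062215 (minus), chr1:161524442-161524502 (plus), chr2:197500044-197500090 (minus) and chr7:157336849-157336909 (plus). The capitals begin 88, 112, 55, 74, 245 and 131 bases before the RefSeq start of the window that holds them. HSP90AA1, HSP90AB1 and HSPD1 also have windows at other RefSeq starts, which held no element. The HSPD1 stretch lies downstream of the other HSPD1 start. HSPD1 shows 2 overlapping elements as 1 run. HSP90AB1 and HSPA8 each hold 1 more element, farther upstream. A match of letters is a description and not a shown binding site. Among the 7 genes, the interval was above equal levels for HSP90AA1, HSP90AB1, HSPD1 and DNAJB6, below for HSPA6 and DNAJA1, and covered them for HSPA8. Genes with the element were thus found on both sides.

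HSP90 made up the highest summed level of any class. HSP90AA1, the stress-inducible cytosolic HSP90, was at 1808 FPKM with the vector and 2352 FPKM with YWHAB. Its ratio was 1.30 (95% interval 1.28 to 1.32), on 28017 and 40665 fragments. It was the highest member in the YWHAB library and stayed higher under all 4 scalings, with a difference of 0.38 as deposited and 0.47 after the length and GC correction. HSP90AB1, the constitutive HSP90, was at 858 FPKM with the vector and 921 FPKM with YWHAB. Its ratio was 1.07 (1.06 to 1.09), on 27747 and 33234 fragments.

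Of the fragments of the HSP90 pair, HSP90AA1 took 50.2% (49.8% to 50.7%) with the vector and 55.0% (54.7% to 55.4%) with YWHAB. Fragments of HSP90AA1 per fragment of HSP90AB1 went from 1.01 to 1.22. Near-identical copies bear on both genes: 11.3% of the 50-base stretches of HSP90AA1 and 16.6% of those of HSP90AB1 also occur elsewhere, chiefly in the pseudogenes HSP90AA2P and HSP90AB3P. How the authors counted reads that match several places is not given in the sources used here. The length the authors used for HSP90AA1, 1252 nt, is close to the mean of its annotated transcripts, so its FPKM against other genes depends on that choice, whereas the ratio of the libraries does not.

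Among HSP70 genes the abundant housekeeping forms were nearly level between the libraries as deposited, and the heat-inducible forms were lower in the YWHAB library. HSPA8, the constitutive cytosolic HSP70 (HSC70), was at 1728 FPKM with the vector and 1748 FPKM with YWHAB, a ratio of 1.01 (0.995 to 1.03). Its sign turned under 1 scaling, from 0.02 to -0.03 with the median ratio set to 0. The difference of HSPA8 was 0.06 with equal totals and 0.11 after the length and GC correction. HSPA9, the HSP70 of the mitochondrial matrix (mortalin), was at 272 FPKM in both libraries, with a ratio of 1.00 (0.961 to 1.04). HSPA8 supplied 80.7% of the summed FPKM of the 9 measured HSP70 genes with the vector and 81.8% with YWHAB. The class sum was 2139 FPKM with the vector and 2138 FPKM with YWHAB, so the total level of HSP70 messages was nearly the same as deposited.

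HSPA1B, a heat-inducible HSP70 on chromosome 6, was at 34.2 FPKM with the vector and 19.7 FPKM with YWHAB. Its ratio was 0.576 (0.522 to 0.634), on 1066 and 685 fragments, and the difference was -0.77. HSPA1A, its neighbour with nearly the same protein, was at 19.4 FPKM with the vector and 14.4 FPKM with YWHAB, a ratio of 0.740 (0.650 to 0.842). HSPA1A shares 71.3% of its 50-base stretches with other places, chiefly HSPA1B, and HSPA1B shares 71.4%, so the split between them is uncertain. Summed, the pair had 1594 fragments with the vector and 1121 with YWHAB, a ratio of 0.630 (0.583 to 0.681). Exons of HSPA1B also overlap AL671762.1 on the same strand, which was at 0 in both libraries.

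The likeness of the pair extends to their upstream sequence, where 93.6% of the aligned bases in the 250 before the start are identical. Neither window held 3 exact units in a row, but each held 1 pair of units. A pair is GAA, any 2 bases, TTC, or TTC, any 2 bases, GAA. Both patterns are their own reverse complement and are contained in the longer element. A pair occurred in 28.4% of member windows and 13.5% of all windows. The stretches around it are shown because they let the likeness be read directly, with the pair in capitals, on the plus strand, 5′ to 3′, again from RefSeq GRCh38.p14.
HSPA1A: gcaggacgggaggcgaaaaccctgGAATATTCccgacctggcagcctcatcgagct
HSPA1B: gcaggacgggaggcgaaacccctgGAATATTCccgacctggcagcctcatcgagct
They lie at chr6:31815413-31815468 and chr6:31827609-31827664, and the pair begins 106 and 105 bases before the start.

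HSPA6, a strictly stress-inducible human HSP70, was at 3.71 FPKM with the vector and 2.46 FPKM with YWHAB, a ratio of 0.664 (0.491 to 0.895) on 108 and 80 fragments. It shares 45.5% of its 50-base stretches with other places, chiefly its near-copy HSPA7, which was at 0.419 and 0.263 FPKM. All 3 heat-inducible genes (HSPA1A, HSPA1B and HSPA6) were lower under each of the 4 scalings. They are low beside HSPA8, which stood at 50.5 times the FPKM of HSPA1B with the vector and 88.7 times with YWHAB.

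The other HSP70 genes were mixed. HSPA12A, a distant relative of the family, was at 13.7 FPKM with the vector and 18.5 FPKM with YWHAB, a ratio of 1.35 (1.20 to 1.52), and was the HSP70 gene with its interval above equal levels. HSPA14, an HSP70 that works at the ribosome, was at 25.7 FPKM with the vector and 21.7 FPKM with YWHAB, a ratio of 0.843 (0.721 to 0.985) whose sign held under all scalings but whose interval reached equal levels under some. A second identifier with the symbol HSPA14 (ENSG00000284024), which overlaps it, was at 10.3 and 10.2 FPKM. HSPA13, found in microsomes, was at 39.5 and 38.3 FPKM, with an interval of 0.892 to 1.05. HSPA2, best known from the testis, was at 2.50 and 2.29 FPKM. HSPA12B, with 10 and 9 fragments, and HSPA1L, with 26 and 20, were not measured.

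HSP110 proteins release nucleotide from HSP70. HSPA4 was at 105 FPKM with the vector and 112 FPKM with YWHAB, a ratio of 1.07 (1.01 to 1.12). HSPA4L was at 12.1 and 14.1 FPKM, a ratio of 1.16 (1.04 to 1.30). HSPH1, the HSP110 gene known to be heat-inducible, was at 55.2 FPKM with the vector and 52.0 FPKM with YWHAB, a ratio of 0.942 that its interval could not separate from equal levels. Differences in this class were all under 0.21 in size, and each gene kept its sign under every scaling, but 0 of the 3 had an interval that stayed off equal levels under all of them.

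**Figure D2:**
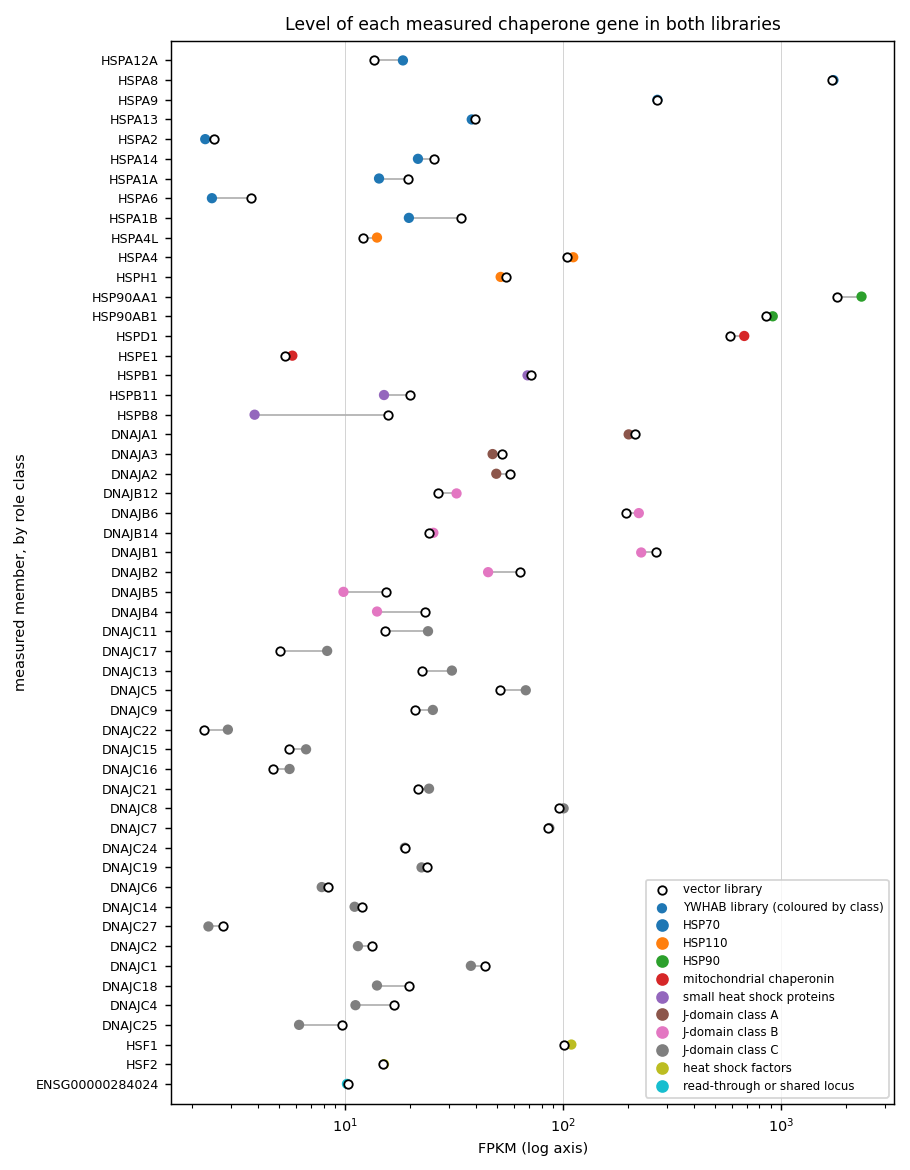
FPKM of each measured member on a log x axis, grouped by role class on the y axis, with open circles for the vector library, filled circles coloured by class for the YWHAB library and a grey line joining the pair. HSP90AA1 (1808 and 2352) and HSPA8 (1728 and 1748) are the highest genes, and the longest line belongs to HSPB8 (15.7 and 3.86).

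In mitochondria, HSPD1, the chaperonin HSP60, was at 583 FPKM with the vector and 681 FPKM with YWHAB. Its ratio was 1.17 (1.13 to 1.21), on 6476 and 8439 fragments. It was higher under all 4 scalings, with a difference of 0.22 as deposited and 0.37 after the length and GC correction. HSPE1, the HSP10 lid of the same machine, was listed at 5.30 FPKM with the vector and 5.75 FPKM with YWHAB, on 38 and 46 fragments, with an interval of 0.691 to 1.71.

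The genes stand head to head on chromosome 2. The HSPD1 start whose window holds the elements lies 539 bases from the HSPE1 start, and another RefSeq start of HSPD1 lies nearer. Yet the FPKM of HSPD1 and HSPE1 differed by 110 times with the vector and 118 times with YWHAB. The low value of HSPE1 comes with overlaps: 14.2% of its exon bases overlap HSPD1 on the opposite strand, 9.71% overlap the read-through gene HSPE1-MOB4 (0 in both libraries), and 7.61% of its 50-base stretches occur elsewhere. Its 26 pseudogenes together held 3 and 6 fragments. The part of these overlaps in the HSPE1 value was not tested.

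Of the 7 measured members that work in mitochondria, the median difference was 0.10. Besides HSPD1 and HSPA9, DNAJC11, a J-domain protein tied to the cristae-organising complex, was at 15.2 FPKM with the vector and 24.1 FPKM with YWHAB. That ratio of 1.58 (1.35 to 1.86) was on 249 and 440 fragments. Exons of DNAJC11 overlap THAP3 in antisense over 27.9% of their bases, and THAP3 was at 19.4 and 20.6 FPKM. DNAJC15, of the inner membrane import motor, was at 5.55 and 6.65 FPKM, a ratio of 1.20 (1.03 to 1.40). DNAJA3 (TID1), a partner of mortalin, was at 52.5 and 47.7 FPKM, a ratio of 0.908 (0.827 to 0.998). DNAJC19, also of the import motor, was at 23.9 and 22.5 FPKM. Under all 4 scalings, 2 of the 7 intervals (HSPD1 and DNAJC11) stayed above equal levels and 0 stayed below. Of all genes compared, 22.3% stayed above and 17.6% below. The intervals of DNAJC15 and DNAJA3 did not keep their side.

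Among small heat shock proteins 3 of 8 were measured. HSPB8, which together with BAG3 directs misfolded proteins to autophagy, was at 15.7 FPKM with the vector and 3.86 FPKM with YWHAB. Its ratio was 0.246 (0.180 to 0.331), on 208 and 57 fragments, and the difference was -1.78. This was the lowest difference of any measured member and stayed past the 2-fold size under all 4 scalings, at -1.66 after the length and GC correction. BAG3, picked with its values in view, was at 84.5 FPKM with the vector and 96.9 FPKM with YWHAB, a ratio of 1.15 (1.08 to 1.22).

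HSPB8 is a single gene at chr12:119178642-119221131 (plus strand, GENCODE 29) with no exon overlap and no 50-base stretch found elsewhere among GENCODE 29 transcripts. Its promoter window held no element of 3 units. The window held 2 pairs of units, and the pair that begins 88 bases before the start is shown because HSPB8 is the gene past the 2-fold size.
HSPB8: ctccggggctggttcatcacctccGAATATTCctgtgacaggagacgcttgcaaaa
The capitals mark the pair and the stretch is chr12:119178819-119178874 on the plus strand (RefSeq GRCh38.p14).

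HSPB1 (HSP27), the abundant member of the class, was at 71.8 FPKM with the vector and 69.0 FPKM with YWHAB, a ratio of 0.961 (0.872 to 1.06). It stood at 3.93 times the fragments of HSPB8 with the vector and 15.4 times with YWHAB. HSPB8 accordingly gave 17.0% (14.9% to 19.2%) of the fragments of the class with the vector and 5.18% (3.95% to 6.66%) with YWHAB. HSPB11, which despite its symbol is a subunit of the intraflagellar transport complex, was at 20.0 and 15.2 FPKM, a ratio of 0.757 (0.611 to 0.937) that kept its direction, while its interval did not stay below equal levels under all scalings. HSPB2, HSPB3 and HSPB6 were at 0 in both libraries. HSPB7 and HSPB9 had at most 3 fragments in either library.

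J-domain proteins choose the clients of HSP70 and trigger its ATPase. Class A members carry the domain layout of bacterial DnaJ. DNAJA1, a farnesylated cytosolic partner of HSPA8, was at 215 FPKM with the vector and 201 FPKM with YWHAB, a ratio of 0.936 (0.891 to 0.984). Its sign turned after the length and GC correction, to 0.01. DNAJA2 was at 57.5 and 49.6 FPKM, a ratio of 0.863 (0.799 to 0.932), and was the class A gene whose interval stayed below equal levels under all 4 scalings. DNAJA4 had 4 and 3 fragments. Of the 3 measured class A genes, DNAJA3 included, all had intervals below equal levels as deposited, against 21.8% of all genes compared.

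Class B held genes with clear counting differences in both directions. DNAJB1 (HSP40), the main stress-inducible partner of HSP70, was at 269 FPKM with the vector and 229 FPKM with YWHAB, a ratio of 0.853 (0.809 to 0.899). DNAJB6, which suppresses the aggregation of polyglutamine proteins, was at 196 and 224 FPKM, a ratio of 1.14 (1.09 to 1.19). These were the highest class B genes and lay on opposite sides. DNAJB1 gave 43.5% of the summed FPKM of the class with the vector and 39.5% with YWHAB. DNAJB6 gave 31.6% and 38.5%. These shares depend on the lengths used, 852 nt for DNAJB1 and 1527 nt for DNAJB6. By fragments, DNAJB1 gave 29.1% and 25.4% of the class and DNAJB6 gave 38.0% and 44.3%.

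No RefSeq window of DNAJB1 held an element of 3 units. The window with 2 pairs of units is drawn on here, and 1 pair is shown for comparison with DNAJB6.
DNAJB1: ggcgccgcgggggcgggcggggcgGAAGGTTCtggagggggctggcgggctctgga
It lies at chr19:14518443-14518498 on the minus strand (RefSeq GRCh38.p14), and the pair in capitals begins 77 bases before the start.

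A further 3 class B genes of lower level also had ratios under 1. DNAJB4, a heat-inducible relative of DNAJB1, was at 23.4 FPKM with the vector and 14.1 FPKM with YWHAB, a ratio of 0.601 (0.505 to 0.715) on 331 and 222 fragments. DNAJB5, another close relative of DNAJB1, was at 15.5 and 9.87 FPKM, a ratio of 0.636 (0.542 to 0.746). DNAJB2, known as a neuronal J-domain protein that handles ubiquitinated clients, was at 63.8 and 45.5 FPKM, a ratio of 0.713 (0.646 to 0.786). DNAJB1 and these 3 genes were lower under all 4 scalings.

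Like DNAJB6, the endoplasmic reticulum members of class B did not share that direction. DNAJB12, anchored in the reticulum membrane with its J domain in the cytosol, was at 26.8 FPKM with the vector and 32.6 FPKM with YWHAB, a ratio of 1.22 (1.12 to 1.33). DNAJB14, its relative, was at 24.5 and 25.5 FPKM, with an interval of 0.942 to 1.16. DNAJB7 and DNAJB8 were at 0 in both libraries and DNAJB13 had 4 and 1 fragments.

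Class C is the diverse remainder, and 21 of its 26 genes were measured, 7 with intervals above equal levels (33.3%) and 4 below (19.0%). Across all genes compared the matching shares were 27.8% and 21.8%. Above were DNAJC11 and DNAJC15 of the mitochondria and the following 5. DNAJC17, a nuclear protein linked to splicing, was at 5.05 FPKM with the vector and 8.31 FPKM with YWHAB, a ratio of 1.65 (1.19 to 2.29) on 61 and 112 fragments. DNAJC13 (RME-8), which works on endosomes, was at 22.6 and 31.0 FPKM, a ratio of 1.37 (1.25 to 1.51). DNAJC5, the cysteine string protein of secretory vesicles, was at 51.5 and 67.7 FPKM, a ratio of 1.32 (1.26 to 1.38).

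DNAJC17 had few fragments and a wide interval. Of its exon bases 26.1% lie opposite other genes, chiefly GCHFR, which was at 0.127 FPKM with the vector and 0 with YWHAB. The difference of DNAJC5 was 0.39 as deposited and 0.20 after the length and GC correction. DNAJC9, a histone co-chaperone, was at 21.0 FPKM with the vector and 25.4 FPKM with YWHAB, a ratio of 1.21 (1.05 to 1.39). Exons of DNAJC9 overlap others in antisense over 28.6% of their bases, chiefly FAM149B1, at 6.38 and 7.88 FPKM. DNAJC21, a factor for the large ribosomal subunit, was at 21.7 and 24.4 FPKM, a ratio of 1.12 (1.01 to 1.24). Under every scaling, DNAJC11, DNAJC17, DNAJC13, DNAJC5 and DNAJC9 stayed higher.

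The class C genes with intervals below equal levels were DNAJC25, DNAJC4, DNAJC18 and DNAJC1. DNAJC25 was at 9.73 FPKM with the vector and 6.18 FPKM with YWHAB, a ratio of 0.635 (0.529 to 0.761). DNAJC4 was at 16.9 and 11.2 FPKM, a ratio of 0.664 (0.518 to 0.848). DNAJC18 was at 19.7 and 14.1 FPKM, a ratio of 0.714 (0.589 to 0.865). These 3 genes were lower under every scaling, though exons of DNAJC4 overlap NUDT22 on the same strand over 10.6% of their bases, and NUDT22 was at 34.7 and 28.4 FPKM. DNAJC1, a membrane protein of the reticulum that faces its lumen, was at 44.3 and 37.9 FPKM, a ratio of 0.857 (0.755 to 0.973).

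The most abundant class C genes were close to level as deposited. DNAJC8, associated with the spliceosome, was at 95.9 FPKM with the vector and 101 FPKM with YWHAB, with an interval of 0.974 to 1.14. DNAJC7, which binds both HSP70 and HSP90, was at 85.7 and 86.9 FPKM, with an interval of 0.933 to 1.10. After the length and GC correction the differences of DNAJC8 and DNAJC7 were 0.20 and 0.15. The other 8 measured class C genes with intervals over equal levels ran from 2.27 FPKM (DNAJC22, vector) to 23.9 FPKM (DNAJC19, vector). DNAJC5B and DNAJC5G were at 0 in both libraries, DNAJC12 had 5 fragments with the vector and 0 with YWHAB, and DNAJC28 had 6 and 8.

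**Figure D3:**
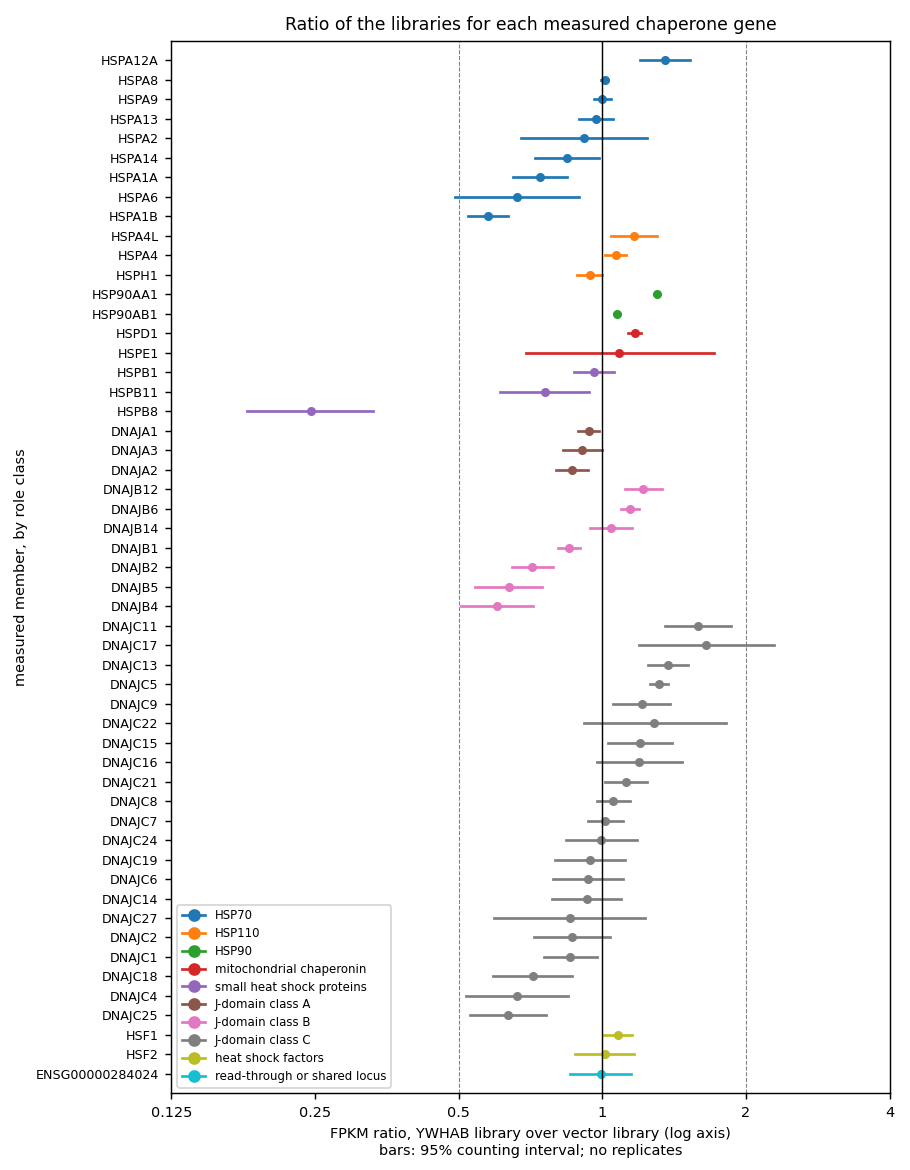
The x axis, a log axis, gives the FPKM ratio of the YWHAB library over the vector library for each measured member, listed by role class on the y axis. Points are ratios and bars are 95% counting intervals without replicate error, and dashed lines mark 0.5 and 2. HSPB8 at 0.246 is the point beyond a dashed line, and the highest ratio is that of DNAJC17 at 1.65.

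The transcription factors of the system were close to level. HSF1, the master activator of the heat shock response, was at 102 FPKM with the vector and 110 FPKM with YWHAB, a ratio of 1.08 (1.01 to 1.15) that kept its direction, while its interval did not stay above equal levels under all scalings. HSF2, its partner in development and stress, was at 15.0 FPKM with the vector and 15.2 FPKM with YWHAB, with an interval of 0.875 to 1.17. Activity of HSF1 depends on its protein, which was not measured.

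The genes that were not measured add little. Of these 19 members, 10 were at 0 in both libraries, 3 of them read-through genes (HSPE1-MOB4, DNAJC25-GNG10 and HSPB2-C11orf52), and the other 9 had at most 37 fragments in either library. At a count of 0, up to 3 fragments remain possible, or 0.242 FPKM (vector) and 0.217 FPKM (YWHAB) for 1 kb of gene. DNAJC30 (mean 0.994 FPKM) and HSPA1L (0.642) lay just outside the limit for measured genes, and HSPA2 (2.40) and DNAJC27 (2.57) just inside.

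Taking all members, chaperone messages made up 1.06% (1.05% to 1.07%) of the fragments of the vector library and 1.16% (1.15% to 1.16%) of those of the YWHAB library. HSP90 alone made up 0.451% and 0.535%, which is most of that difference. Mitochondrially encoded genes held 5.21% of the fragments with the vector and 3.42% with YWHAB. The part of that shift in the members' levels was not tested.

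Partner genes of the same systems were then described by lists. Of 33 cytosolic co-chaperone genes 32 were measured, 0 were 2-fold higher and 0 were 2-fold lower, with a median difference of 0.10. HSPBP1, a nucleotide exchange factor of HSP70, was at 34.3 FPKM with the vector and 54.9 FPKM with YWHAB, a ratio of 1.60 (1.42 to 1.81). FKBP4, an immunophilin of HSP90, was at 145 and 180 FPKM, and CACYBP was at 133 and 161 FPKM. CDC37L1, a relative of the kinase loader CDC37, was at 5.17 and 3.30 FPKM, a ratio of 0.638. Intervals lay above equal levels for 15 of the 32 (46.9%) and below for 6 (18.8%), against 27.8% and 21.8% of all genes compared. Both shares are higher among abundant genes: of all genes with at least 100 FPKM, 44.2% lay above and 36.0% below.

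The cytosolic chaperonin TRiC and its helper prefoldin fold actin and tubulin. All 14 genes were measured, 0 passed the 2-fold size and the median difference was 0.09. Higher intervals, clear of equal levels, were seen in 7 genes (50%), and lower ones in 2 (14.3%). Across all genes compared the matching shares were 27.8% and 21.8%, and at 100 FPKM or more 44.2% and 36.0%. The median level of this list was 196 FPKM, so its share of higher intervals was near that of abundant genes. CCT2 was at 243 FPKM with the vector and 300 FPKM with YWHAB, and CCT7 was at 391 and 470 FPKM. The prefoldin subunits PFDN2, at 191 and 154 FPKM, and PFDN5, at 232 and 195 FPKM, had the intervals below. Chaperonin and prefoldin subunits with intervals off equal levels thus lay on opposite sides.

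For 20 genes of mitochondrial folding, import and proteolysis, 0 passed the 2-fold size and the median difference was 0.09. Higher intervals, clear of equal levels, were seen in 8 genes (40%), and lower ones in 2 (10%). Across all genes compared the matching shares were 27.8% and 21.8%, and at 100 FPKM or more 44.2% and 36.0%. The median level of this list was 63.3 FPKM. The matrix protease LONP1 was at 118 FPKM with the vector and 162 FPKM with YWHAB, a ratio of 1.38 (1.31 to 1.45). The disaggregase CLPB was at 21.9 and 26.3 FPKM, the import pore TOMM40 at 76.6 and 91.4 FPKM, and the inner membrane protease AFG3L2 at 15.5 and 18.4 FPKM.

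The 13 chaperones and helpers of the endoplasmic reticulum had lower levels in the YWHAB library. Their median difference was -0.60, 3 were 2-fold lower, and 12 intervals lay below equal levels and 0 above. HSPA5 (BiP), the HSP70 of the reticulum, was at 1908 FPKM with the vector and 602 FPKM with YWHAB, a ratio of 0.315 (0.312 to 0.320). PDIA4 was at 791 and 279 FPKM, DNAJB9 at 71.3 and 33.5 FPKM, and SDF2L1 at 35.1 and 17.4 FPKM. This list was chosen with its result known and is given only for scale. The 8 measured members that sit in the reticulum had a median of -0.07, with 1 interval (12.5%) above equal levels and 3 (37.5%) below. Of all genes compared, 27.8% had intervals above and 21.8% below. Because of how the list was chosen, no contrast between it and these members is drawn.

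Of 13 HSF1 target genes outside the members 12 were measured, 0 were 2-fold higher and 0 were 2-fold lower. Their median difference was -0.08, and 5 intervals (41.7%) lay above equal levels and 5 (41.7%) below. Of all genes compared 27.8% and 21.8% did so, and of those with at least 100 FPKM 44.2% and 36.0%. HMOX1, the heme oxygenase, was at 40.0 FPKM with the vector and 20.1 FPKM with YWHAB, a ratio of 0.502 (0.428 to 0.587). UBB, a ubiquitin gene, was at 169 and 134 FPKM. FKBP4, also on the co-chaperone list, was the highest by difference at 0.31. The targets, like the members, lay on both sides of equal levels.

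**Figure D4:**
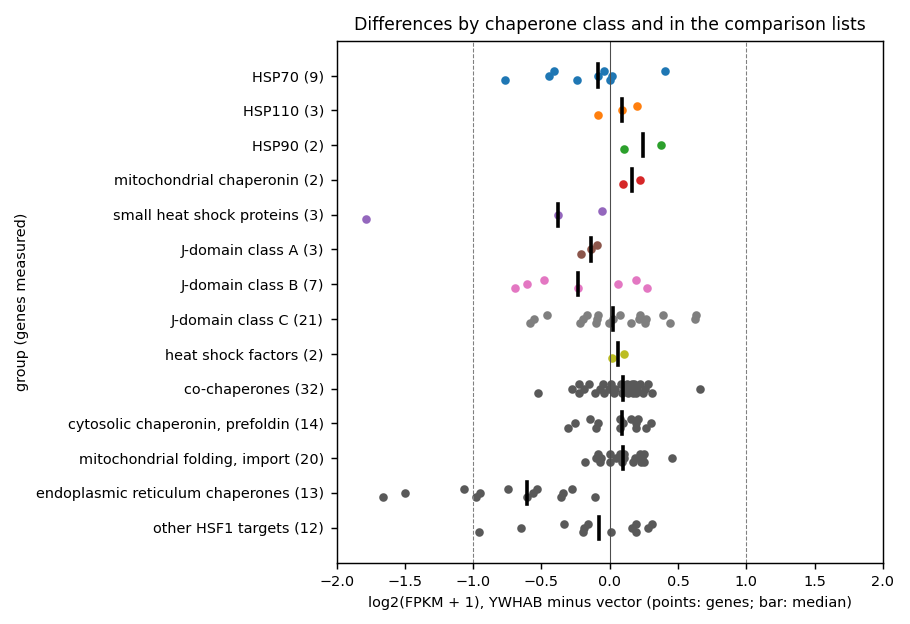
Each point is a gene, placed on the x axis by its difference in log2(FPKM + 1), YWHAB minus vector, with role classes and comparison lists on the y axis and the number of measured genes in brackets. Black bars are medians and dashed lines mark differences of 1 and -1. Medians of the member classes run from -0.38 (small heat shock proteins) to 0.24 (HSP90), where -0.38 is the value of HSPB11 as the middle of 3 genes, and that of the endoplasmic reticulum list is -0.60.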

How the data were processed

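The authors deposited FPKM values, per the labels of both columns, with 1 library per group. HISAT2 2.0.5 and build hg38 are named in the submitters' processing notes. Not given in the sources used here are the counter, annotation, strand handling and filters. Fragment totals and counts were worked out from the FPKM steps: 26769 of 26770 genes above 0 came out whole within a relative tolerance of 1e-12. For 9 measured members, HSPA8 and HSPA1A among them, gene length could be recovered only up to a factor, the one closest to the GENCODE 29 mean was taken, and interval widths depend on it. GENCODE 29 held 96.3% of the identifiers. Overlaps and shared 50-base stretches were computed from it. Named genes were all measured members outside the J-domain classes, the J-domain genes that were highest or lowest by difference or highest by FPKM, and 4 genes of largest difference per list, of which 1 is not reported here. The members and lists were chosen with earlier results of these data known. The code for fragment counts, 2-fold calls and intervals was tested on simulated data, and the code for the scalings was not. Protein sequences were not analysed here. Software was Python 3.11.15, numpy 2.4.6, pandas 2.3.3, scipy 1.17.1 and scikit-learn 1.9.0. The 6 alternatives were a pseudocount of 0.1 FPKM, dropping the filter, a limit of 5 FPKM on the mean, equal totals, a median ratio set to 0 over genes reaching 10 FPKM, and a correction for length and GC content.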

Additional observations from a re-analysis of the deposited data

How the results depend on the processing

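The member counts of 0 genes 2-fold higher and 1 lower were the same under all 6 alternatives. Intervals above equal levels numbered 12 to 19 and below 13 to 19, and the median ran from -0.05 to 0.03. Equal totals shift the log2 scale by 0.04 and the median ratio by -0.04. Of 45 named members 39 kept their sign under every alternative run, and HSPA8, HSPA9, DNAJA1, DNAJC7, HSF2 and ENSG00000284024 turned under at least 1. Of 252 alternative values for classes and lists, 250 stayed within the limits set (0.183 for a median). The exceptions were the small heat shock protein median, -0.13 with no filter, which admits genes near 0, and the HSF1 target list, where 1 gene was 2-fold lower with the median ratio set to 0. No paired analysis was possible because each group has 1 library. Depth limits members under about 100 fragments, and replicate error is unknown.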

Other observations

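Genes outside the protein-coding rule that carry member names gave further values. The pseudogene HSP90AA2P was at 6.59 FPKM with the vector and 9.50 FPKM with YWHAB, on 179 and 288 fragments, and HSP90AB3P was at 2.90 and 3.90 FPKM, on 78 and 117 fragments. HSPD1P1 was at 2.76 and 3.36 FPKM. The parents of these 3 copies, HSP90AA1, HSP90AB1 and HSPD1, were also at a higher FPKM in the YWHAB library. Whether such fragments come from the copies or from the parents was not tested. DNAJC3-DT, a non-coding RNA that starts beside DNAJC3, was at 2.59 FPKM with the vector and 1.22 FPKM with YWHAB, on 59 and 31 fragments, and DNAJC3 itself was at 33.0 and 21.4 FPKM.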
